A study of Mus musculus with 6 samples.

Results

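Ceramide is built in hepatocytes from palmitate and serine, and 10 genes of its synthesis and breakdown were followed in the RNA of mouse primary hepatocytes kept in palmitate. The 10 were taken by gene name, *Sptlc1*, *Sptlc2*, *Cers2*, *Cers4*, *Cers5*, *Cers6*, *Degs1*, *Asah1*, *Smpd1* and *Sphk2*, from the 57180 genes listed, and all 10 were among the 14151 genes with enough counts to be tested. Hepatocytes were isolated with collagenase from male C57BL/6 mice aged 8 to 10 weeks, of 2 groups named STING Loxp and STING LKO. Both groups carried the floxed STING allele, and in STING LKO mice it was combined with Albumin-Cre, a transgene that puts the Cre recombinase in hepatocytes, so that other liver cells of these mice keep the gene. The cells of both groups were cultured with 10% serum and 0.1 µM dexamethasone and treated with 0.1 mM palmitate for 24 h, and 3 libraries per group were sequenced. No source says whether the 3 libraries of a group came from separate mice or cultures, so the p-values measure only the spread between these libraries, which may be technical.

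Ceramide is the hub of sphingolipid metabolism. Serine palmitoyltransferase joins palmitoyl-CoA to serine in the first and rate-limiting step, ceramide synthases then attach a second acyl chain whose length depends on the enzyme, and a desaturase completes ceramide. Ceramide passes on to sphingomyelin and glycosphingolipids, is released again by sphingomyelinases, and is broken down by ceramidases to sphingosine, which sphingosine kinases phosphorylate. In the liver, ceramides with the acyl chain of palmitate have been tied to insulin resistance and steatosis, while the very-long-chain ceramides that dominate there are made by CERS2.

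The RNA of *Cers6* and *Cers5*, the ceramide synthases that use palmitoyl-CoA, was higher in the libraries labelled STING LKO by 1.56 and 1.48 times, and the RNA of *Sptlc2*, the catalytic subunit of serine palmitoyltransferase, was 1.26 times higher in the libraries labelled STING Loxp. These 3 genes passed the test of the difference, the quasi-likelihood test of edgeR at an adjusted p under 0.05 (Benjamini-Hochberg, over all 14151 genes), and the other 7 did not. Among the 10 genes 1 was called lower and 2 were called higher, where 11.6% and 11.5% of all genes tested were called lower and higher, so the counts lie near those of any 10 genes and say nothing of the list as a whole. Over these 10 genes, 8 log2 fold changes were below 0, and their median was -0.12, beside -0.0021 over all genes tested. This median rests in part on single libraries, and was -0.032 without STING Loxp replicate 3, -0.060 without STING LKO replicate 2 and -0.036 by limma on log2(FPKM + 1). By the criteria of the study, which ask for an absolute log2 fold change above 1, a mean FPKM (reads scaled to gene length and library size) above 1 and an adjusted p below 0.05, 0 of the 10 were called in either direction, where 1.49% of all genes met them as lower and 0.558% as higher.

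The stretch of 250 bases before the transcription start is shown for these 3 genes, since they are the members with a difference between the groups. The sequences are RefSeq's on GRCm38.p6, 5′ to 3′ on the coding strand, at chr2:68861191-68861440 (plus strand) for *Cers6*, chr15:99772516-99772765 (minus strand) for *Cers5* and chr12:87388356-87388605 (minus strand) for *Sptlc2*. Capitals mark matches on either strand to the GC box GGGCGG, the CCAAT box CCAAT and the E-box CACGTG.
Cers6: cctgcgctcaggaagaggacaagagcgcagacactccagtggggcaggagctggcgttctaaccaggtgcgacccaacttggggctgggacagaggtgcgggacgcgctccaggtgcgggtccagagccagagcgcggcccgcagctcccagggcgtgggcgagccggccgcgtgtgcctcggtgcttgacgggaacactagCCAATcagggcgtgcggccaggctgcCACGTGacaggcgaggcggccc
Cers5: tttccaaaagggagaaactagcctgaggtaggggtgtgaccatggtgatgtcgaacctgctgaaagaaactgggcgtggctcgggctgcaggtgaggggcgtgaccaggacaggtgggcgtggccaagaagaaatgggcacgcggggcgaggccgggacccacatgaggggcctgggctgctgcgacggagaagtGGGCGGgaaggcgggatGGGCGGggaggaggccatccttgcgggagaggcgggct
Sptlc2: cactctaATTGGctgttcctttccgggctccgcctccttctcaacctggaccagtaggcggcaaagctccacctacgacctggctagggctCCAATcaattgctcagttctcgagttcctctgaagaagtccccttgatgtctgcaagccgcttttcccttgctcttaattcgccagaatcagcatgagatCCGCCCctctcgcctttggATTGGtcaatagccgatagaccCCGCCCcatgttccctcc
The *Cers6* window held 1 CCAAT box and 1 E-box, the *Cers5* window 2 GC boxes, and the *Sptlc2* window 2 GC boxes and 3 CCAAT boxes. Windows of the same length before 32851 promoters of the table held a GC box in 32.7%, a CCAAT box in 33.8% and an E-box in 6.02%. Windows were found for 9 of the 10 members, 11 windows in all, and none of these held the letters GAAANNGAA, of the type bound by interferon regulatory factors, or GGGNNTTCC, of the NF-kappa B type, which 7.13% and 4.98% of all promoters held. The matches shown did not overlap one another, and a match is a description of the sequence only.

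Libraries held 14726983 to 18536985 counted reads, with TMM normalization factors from 0.9727 to 1.023, and mitochondrial genes took 3.86% to 4.65% of them. The targeted gene did not differ as the labels would have it. *Sting1* had 19, 16 and 23 reads in the STING Loxp libraries, against 24, 23 and 15 in STING LKO, a log2 fold change of -0.08 (SE 0.298, edgeR adjusted p = 0.883), so the groups are called here by their labels. Where the deleted part of the gene lies was not examined, and reads outside it would check nothing. By RT-PCR on purified hepatocytes, the study reported the mRNA of this gene in STING Loxp cells and its loss in STING LKO cells. Counts of called markers are to be read beside the shares over all genes tested, 11.6% lower and 11.5% higher. Of 20 hepatocyte markers 16 were called lower in the libraries labelled STING LKO and 0 higher, and the median of their log2 fold changes was -0.59. Their summed FPKM was 13090 to 13700 in STING Loxp and 10960 to 11100 in STING LKO, led by *Alb* (log2 fold change -0.27, edgeR adjusted p = 0.00319) and *Apoa1* (-0.09, adjusted p = 0.232). Markers of other liver cells gave 2 lower and 0 higher of 15 tested for macrophages and Kupffer cells (summed FPKM 68.87 to 86.12 and 56.13 to 64.86), 1 lower and 0 higher of 13 for sinusoidal endothelium (35.66 to 38.4 and 33.39 to 36.25), 0 lower and 1 higher of 12 for stellate cells and fibroblasts (21.37 to 23.82 and 23.37 to 25.29), and 3 lower and 1 higher of 6 for cholangiocytes (124.1 to 145.2 and 65.89 to 77.25). No marker of any list was at 0 in every library. The macrophage sum was led by *Cd68*, at a mean of 37.5 FPKM in STING Loxp and 21.1 in STING LKO. The median log2 fold change of that list was -0.12. In it *Cd68* and *Mpeg1* (log2 fold change -0.69, edgeR adjusted p = 0.00401) were the markers called lower. *Clec4f* (0.12), *Vsig4* (0.20), *Marco* (0.05), *Cd5l* (0.94), *Lyz2* (0.18), *Tyrobp* (0.32) and *Fcer1g* (0.18) were above 0. *Adgre1* (-0.12), *Csf1r* (-0.16), *Ptprc* (-0.82), *C1qa*, *C1qb* and *C1qc* were below 0, and apart from *Cd68* and *Mpeg1* none was called. The cholangiocyte sum was led by *Cldn4*, at a mean of 111 FPKM in STING Loxp and 55.8 in STING LKO. *Krt19* was the marker of that list called higher (log2 fold change 0.82, edgeR adjusted p = 0.0479), and *Krt7*, *Epcam*, *Cftr* and *Ggt1* had too few reads to be tested. The part of these shifts in the differences of the sphingolipid genes was not tested, and in bulk RNA fewer cells of a type and less RNA per cell cannot be told apart.

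The questions asked of each enzyme were how much of its RNA the hepatocytes held and whether the 2 groups differed. Differences are given on normalized CPM, the reads of a gene scaled to the counted reads of the library after TMM normalization, with no scaling to length, as a log2 fold change of STING LKO over STING Loxp with its standard error (SE), and positions are those the authors' table lists.

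Serine palmitoyltransferase is a complex of SPTLC1 with a catalytic partner. *Sptlc2* (ENSMUSG00000021036, chromosome 12, 87351832 to 87435129), whose product carries the catalytic site, was at 204, 208 and 183 CPM in STING Loxp replicates 1, 2 and 3, and at 158, 149.8 and 165 CPM in STING LKO replicates 1, 2 and 3. Every STING LKO library lay below every STING Loxp library, and the means were 198 ± 13.1 and 158 ± 7.41 CPM (SD, n = 3). The log2 fold change was -0.33 (SE 0.0670, 95% interval -0.49 to -0.18, edgeR adjusted p = 0.00914), and it kept its call in all 14 alternative analyses, with values from -0.39 to -0.28 and adjusted p from 7.22e-04 to 0.0463 over them. *Sptlc1* (ENSMUSG00000021468, chromosome 13, 53486784 to 53531433), which encodes the partner without a catalytic site, was at 55.0, 47.0 and 55.1 CPM in STING Loxp and at 52.7, 52.6 and 51.3 CPM in STING LKO. The STING LKO values lay inside the range of the STING Loxp values, with means of 52.2 ± 0.764 and 52.4 ± 4.66 CPM (SD, n = 3). Its log2 fold change was -0.01 (SE 0.0796, 95% interval -0.19 to 0.18, edgeR adjusted p = 0.972), and the sign turned in 5 of the alternatives. The difference between the 2 subunits was not itself tested. *Sptlc3*, the other catalytic subunit, had 0 reads in every library, which allows up to 3 reads in each.

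**Figure D1:**
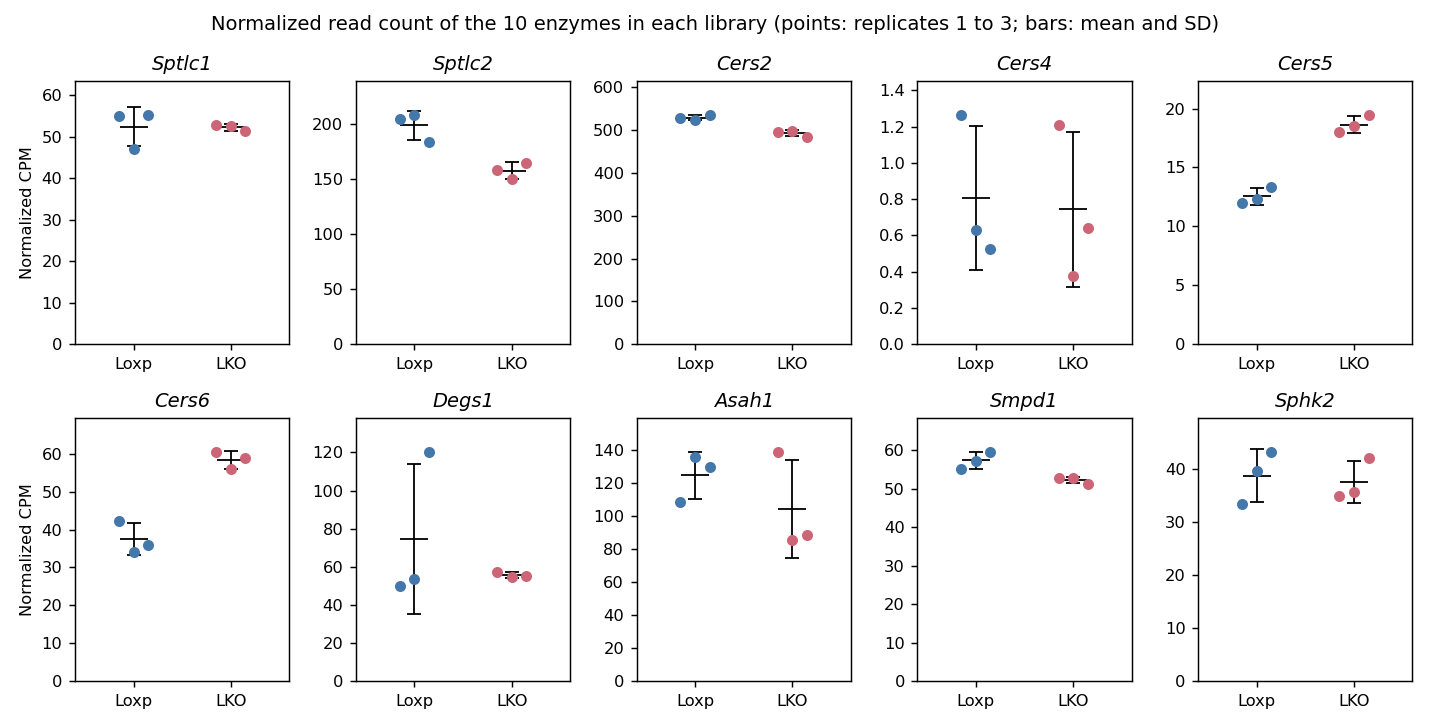
Normalized CPM (linear axes from 0) of the 10 enzymes in the 3 STING Loxp and 3 STING LKO libraries; points are libraries in the order of replicates 1 to 3, the long bar is the mean and the whiskers are 1 SD. The groups are apart for *Sptlc2*, *Cers2*, *Cers5*, *Cers6* and *Smpd1*, and 1 STING Loxp library stands above the rest for *Degs1* at 120.2 CPM.

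Of the ceramide synthases, *Cers6* (ENSMUSG00000027035, chromosome 2, 68691785 to 68944626) was at 42.2, 34.1 and 35.9 CPM in STING Loxp replicates 1, 2 and 3, and at 60.5, 55.9 and 59.0 CPM in STING LKO. The lowest STING LKO library was above the highest STING Loxp library, and the means were 58.4 ± 2.33 and 37.4 ± 4.26 CPM (SD, n = 3). The log2 fold change of 0.64 (SE 0.0909, 95% interval 0.44 to 0.85, edgeR adjusted p = 0.00182) was the largest of the 10 in size, and over the 14 alternatives it ran from 0.55 to 0.74 with an adjusted p of at most 0.01. *Cers5* (ENSMUSG00000023021, chromosome 15, 99632762 to 99670766) was at 12.0, 12.3 and 13.4 CPM in STING Loxp and at 18.0, 18.5 and 19.4 CPM in STING LKO. Here too the groups did not overlap, and the means were 18.6 ± 0.731 and 12.6 ± 0.720 CPM (SD, n = 3). Its log2 fold change was 0.57 (SE 0.0939, 95% interval 0.36 to 0.78, edgeR adjusted p = 0.00369), and over the alternatives it ran from 0.43 to 0.62 with an adjusted p of at most 0.0177. *Cers5* and *Cers6* both make ceramide from palmitoyl-CoA. Their log2 fold changes differed by less than the width of either interval.

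*Cers2* (ENSMUSG00000015714, chromosome 3, 95222102 to 95230910), the synthase for very-long-chain ceramides, was at 529, 525 and 535 CPM in STING Loxp and at 496, 498 and 485 CPM in STING LKO. The groups did not overlap, with means of 529.6 ± 4.97 and 493 ± 7.25 CPM (SD, n = 3), and STING Loxp was higher by 1.07 times. The log2 fold change was -0.10 (SE 0.0434, 95% interval -0.20 to -0.0042, edgeR adjusted p = 0.126). The interval, which is not adjusted for the number of genes, lay below 0. After adjustment *Cers2* was not called, nor was it in any alternative, where the adjusted p was 0.0986 to 0.37. *Cers2* shares 75 bases with *Setdb1*, which had 6723 reads beside 49338 of *Cers2*, and 345 bases with the noncoding 6330562C20Rik, which had 293, and whether the counting used strand is not given in the sources used here. *Cers4* (ENSMUSG00000008206, chromosome 8, 4543026 to 4581680) was close to undetected, with 20, 9 and 8 reads in STING Loxp against 19, 7 and 11 in STING LKO. Its log2 fold change of -0.15 (SE 0.511, 95% interval -1.32 to 1.01, edgeR adjusted p = 0.864) had an interval that holds a 2-fold difference in either direction, so that none was detectable at this depth. Of the synthases outside the 10, *Cers1* had 0 reads in every library and *Cers3* at most 3.

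The balance between the synthases was then compared within each library, a comparison chosen after the values were seen. For each read of *Cers2* there were 0.0798, 0.0650 and 0.0671 normalized reads of *Cers6* in STING Loxp replicates 1, 2 and 3, against 0.122, 0.112 and 0.122 in STING LKO. The ratio was 1.68 times higher in STING LKO, with means of 0.119 ± 0.00556 and 0.0706 ± 0.00800 (SD, n = 3, exact two-sided permutation p = 0.1, the smallest that 3 against 3 libraries can give). The ratio of *Cers5* to *Cers2* was 1.6 times higher, with means of 0.0378 ± 0.00200 and 0.0237 ± 0.00119 (SD, n = 3, exact two-sided permutation p = 0.1). On the scale of FPKM, *Cers2* held 93.3%, 94.0% and 93.8% of the summed level of the 4 synthases in STING Loxp, against 90.0%, 90.4% and 89.7% in STING LKO. *Cers5* and *Cers6* together held 6.62%, 5.93% and 6.18% in STING Loxp, against 9.92%, 9.53% and 10.2% in STING LKO. The share of *Cers2* stayed far above that of the others in every library, and the summed FPKM of the 4 was 83.7 to 87.3 in STING Loxp and 85.1 to 86.0 in STING LKO, ranges that overlap.

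**Figure D2:**
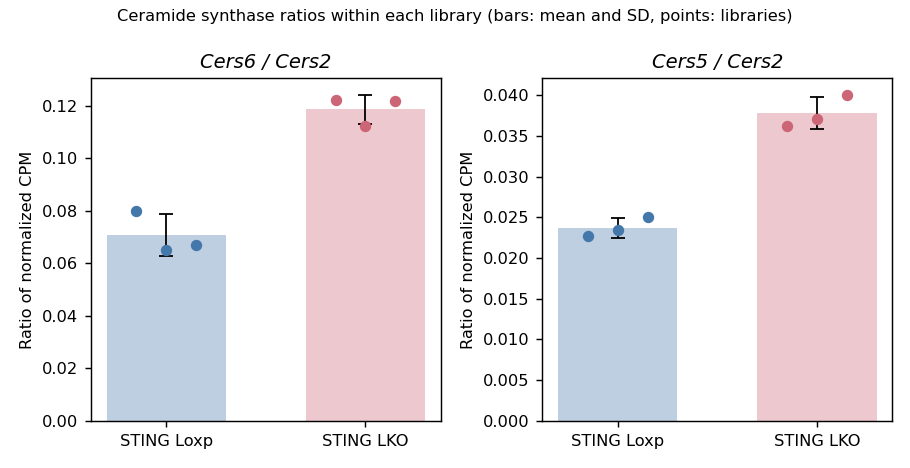
Ratio of normalized CPM of *Cers6* to *Cers2* (left) and of *Cers5* to *Cers2* (right) within each library; bars are group means from 0, whiskers 1 SD and points the 3 libraries per group. All 3 STING LKO libraries are above all 3 STING Loxp libraries in both panels, at 1.68 and 1.6 times the STING Loxp mean.

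*Degs1* (ENSMUSG00000038633, chromosome 1, 182103337 to 182110369), the desaturase that turns dihydroceramide into ceramide, was at 50.04, 53.8 and 120.2 CPM in STING Loxp replicates 1, 2 and 3 and at 57.4, 54.6 and 54.9 CPM in STING LKO. STING Loxp replicate 3 stood alone, at 2.09 times the next highest library, and the other 5 libraries lay between 50.04 and 57.4 CPM. With all 6 libraries the log2 fold change was -0.43 (SE 0.296, 95% interval -1.10 to 0.25, edgeR adjusted p = 0.348), and without STING Loxp replicate 3 it was 0.10 (edgeR adjusted p = 0.431). The value of *Degs1* in that library therefore sets the sign of its difference, and no call was made with or without it. *Degs2*, the other desaturase, had 0 reads in every library.

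*Asah1* (ENSMUSG00000031591, chromosome 8, 41793234 to 41827810), the lysosomal acid ceramidase, was at 108, 135 and 129.6 CPM in STING Loxp and at 139, 85.3 and 88.6 CPM in STING LKO. STING LKO replicate 1 was the highest of the 6 libraries and the other STING LKO libraries the lowest, so the groups overlapped, with means of 104 ± 29.9 and 124 ± 14.4 CPM (SD, n = 3). The log2 fold change was -0.26 (SE 0.180, 95% interval -0.67 to 0.15, edgeR adjusted p = 0.35). Without STING LKO replicate 1 it was -0.51 and called lower (edgeR adjusted p = 0.0181), and without STING LKO replicate 2 it was -0.13 (adjusted p = 0.692).

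*Smpd1* (ENSMUSG00000037049, chromosome 7, 105203567 to 105207596), the acid sphingomyelinase that releases ceramide from sphingomyelin in lysosomes, was at 55.3, 57.3 and 59.6 CPM in STING Loxp and at 52.7, 52.9 and 51.3 CPM in STING LKO. The groups did not overlap, yet the gap was small, with means of 52.3 ± 0.858 and 57.4 ± 2.15 CPM (SD, n = 3). Its log2 fold change of -0.13 (SE 0.0643, 95% interval -0.28 to 0.01, edgeR adjusted p = 0.173) was not called. *Sphk2* (ENSMUSG00000057342, chromosome 7, 45358891 to 45367426), a sphingosine kinase, was at 33.4, 39.6 and 43.2 CPM in STING Loxp and at 34.9, 35.6 and 42.2 CPM in STING LKO. The 2 groups covered nearly the same range, with a log2 fold change of -0.04 (SE 0.114, 95% interval -0.30 to 0.22, edgeR adjusted p = 0.828). *Sphk2* shares 2546 bases with *Rpl18*, a ribosomal protein gene with 16818 reads beside 3682 of *Sphk2*, so its value is uncertain where the counting could split reads between them.

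Over the 10 enzymes, the groups did not overlap for 3 genes lower in STING LKO (*Sptlc2*, *Cers2* and *Smpd1*) and 2 genes higher (*Cers5* and *Cers6*), where 20.3% and 20.4% of all genes tested did not overlap in those directions, shares of the same order. For each of these 5 genes alone the exact two-sided permutation p was 0.1, the smallest that 3 against 3 libraries can give. The direction of the difference was the same with each library left out in turn for 6 of the enzymes, *Sptlc2*, *Cers2*, *Cers5*, *Cers6*, *Asah1* and *Smpd1*, and turned for *Sptlc1*, *Cers4*, *Degs1* and *Sphk2* with at least 1 library left out.

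**Figure D3:**
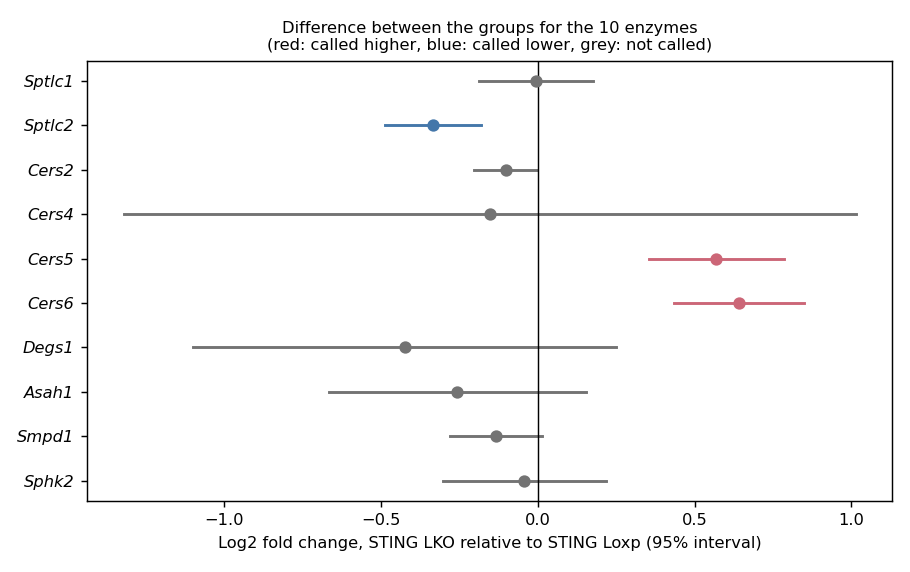
Log2 fold change of STING LKO over STING Loxp for the 10 enzymes, with 95% intervals from edgeR's quasi-likelihood fit; red is called higher, blue called lower and grey not called at an adjusted p of 0.05. *Cers6* (0.64) and *Cers5* (0.57) lie to the right of 0 and *Sptlc2* (-0.33) to the left, while the interval of *Cers4* runs from -1.32 to 1.01.

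**Figure D4:**
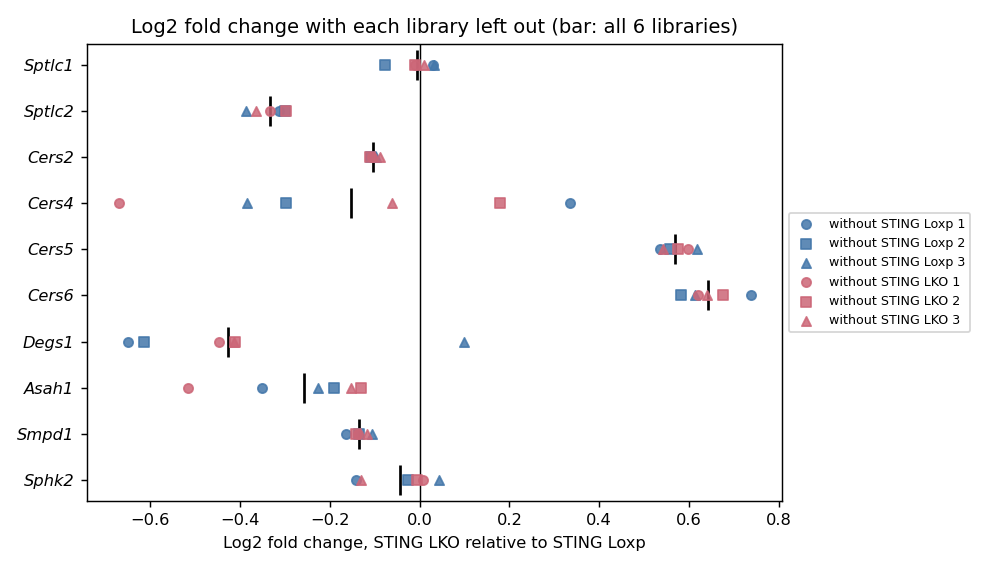
Log2 fold change of the 10 enzymes with each of the 6 libraries left out in turn (symbols) and with all 6 (black bar). *Cers5*, *Cers6* and *Sptlc2* stay on their side of 0 throughout, and *Degs1* moves from -0.43 to 0.10 without STING Loxp replicate 3.

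Levels of the 10 genes were compared per length of gene. By the authors' FPKM, the mean over the 6 libraries was highest for *Cers2* at 78.8, followed by *Asah1* at 20.4, *Sptlc2* at 16.1, *Degs1* at 16.05, *Sptlc1* at 14.2, *Smpd1* at 10.3, *Sphk2* at 5.00, *Cers6* at 4.38, *Cers5* at 2.53 and *Cers4* at 0.0400. The ranges over libraries overlapped between neighbours from *Asah1* to *Sptlc1* and from *Sphk2* to *Cers5*, so the ranges do not separate neighbours in those runs. Each range holds both groups, and within each library the FPKM of *Cers6* was above that of *Cers5*. The gene length behind the FPKM was set against the exons of a GENCODE annotation on GRCm38, where the authors list GRCm39. It was longer than all exons of the gene joined for 98.9% of 10072 genes with several overlapping transcripts, with a median ratio of 1.43. By that annotation FPKM understates these genes unequally, and whether exons added in a later annotation make up the excess was not examined. On normalized CPM per kilobase of the longest principal transcript, *Cers2* was again first at 231 and *Cers4* last at 0.0818, and *Cers5* at 7.44 came before *Cers6* at 6.81, whose ranges overlap on both scales. The ratio of *Cers6* to *Cers5* was 1.73 by FPKM and 0.915 by the second scale, so no order is given for this pair. The joint share of *Cers5* and *Cers6* among the 4 synthases was 4.33% to 4.68% in STING Loxp and 6.94% to 7.46% in STING LKO on the second scale, again without overlap.

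The enzymes around the 10 were taken from a list of 63 other genes of sphingolipid metabolism. Of these, 50 were tested, 7 were called lower and 6 higher, close to the shares over all genes, and 37 were not called. The median of the 50 log2 fold changes was -0.07. The groups did not overlap for 13 of the 50 genes lower and 7 higher, where 20.3% and 20.4% of all genes tested did not overlap in those directions. The 13 genes not tested had at most 11 reads in any library. By the study's criteria 1 of the 50 was called, *Smpdl3b*, as higher, where 1.49% of all genes tested met them as lower and 0.558% as higher. Of the 13 called genes, 5 kept the call in all 14 alternatives (*Gm2a*, *Ormdl3*, *Smpd3*, *Spns2* and *Ugcg*) and 8 lost it in at least 1. Some calls were lost with all 6 libraries kept. By DESeq2 these were *B4galt6* (adjusted p = 0.1), *Gla* (0.0673) and *Plpp3* (0.0503). *Rtn4* lost its call by edgeR's exact test (adjusted p = 0.0842) and *Sgpp1* by limma on log2(FPKM + 1) (adjusted p = 0.065).

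Among the partners of serine palmitoyltransferase, *Ormdl3*, which encodes an inhibitor of the enzyme, was at 103, 95.2 and 106.7 CPM in STING Loxp and at 71.6, 69.1 and 77.9 CPM in STING LKO. All 3 STING LKO libraries were below all STING Loxp libraries, and the log2 fold change was -0.48 (SE 0.0736, edgeR adjusted p = 0.00265). The ratio of *Ormdl3* to *Sptlc2* within a library, chosen after the values were seen, was 0.462 ± 0.0103 in STING LKO and 0.514 ± 0.0621 in STING Loxp (SD, n = 3, exact two-sided permutation p = 0.3). *Ormdl1* (log2 fold change -0.32, edgeR adjusted p = 0.187) and *Ormdl2* (-0.14, adjusted p = 0.315), which encode the related inhibitors, and *Sptssa* (0.12, adjusted p = 0.496), a small activating subunit, were not called. *Rtn4*, which encodes the reticulon Nogo and is known to restrain the enzyme, was higher by 0.20 on the log2 scale (SE 0.0561, edgeR adjusted p = 0.0357) and lost its call when any 1 library was left out. *Sptssb*, the other small subunit, had 0 reads in every library.

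Among the enzymes that use ceramide, *Ugcg*, the glucosylceramide synthase that begins glycosphingolipid synthesis, was at 56.0, 51.2 and 51.8 CPM in STING Loxp and at 80.4, 79.0 and 73.6 CPM in STING LKO. The groups were well apart, with a log2 fold change of 0.55 (SE 0.0703, edgeR adjusted p = 0.00116), a fold of 1.46. *B4galt6*, a lactosylceramide synthase, was higher by 0.36 (edgeR adjusted p = 0.0367), and that call was lost when any 1 library was left out. The 2 were the called genes among 7 tested of glycosphingolipid synthesis, where 11.6% and 11.5% of all genes tested were called lower and higher. *Sgms2*, a sphingomyelin synthase, went from 303 ± 16.8 to 359 ± 3.97 CPM (SD, n = 3, log2 fold change 0.24, edgeR adjusted p = 0.0145), and was not called without STING Loxp replicate 3, STING LKO replicate 2 or STING LKO replicate 3 (adjusted p from 0.0522 to 0.056). It was the only one called of 6 genes of sphingomyelin synthesis and ceramide transfer, to be read beside the same shares over all genes.

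Among the other sphingomyelinases, *Smpd3*, the neutral sphingomyelinase of the Golgi and plasma membrane, was at 51.8, 47.2 and 49.3 CPM in STING Loxp and at 28.04, 26.7 and 29.7 CPM in STING LKO. It was 1.76 times higher in STING Loxp (log2 fold change -0.81, SE 0.0742, edgeR adjusted p = 2.48e-04), the smallest adjusted p of the sphingolipid genes tested. *Smpd4*, another neutral sphingomyelinase, was higher in STING LKO by 0.30 on the log2 scale (edgeR adjusted p = 0.0131), a call lost without STING LKO replicate 3 (adjusted p = 0.0504). *Smpdl3b*, a membrane-anchored relative of the acid enzyme, had few reads, 20, 29 and 24 in STING Loxp against 48, 56 and 71 in STING LKO (log2 fold change 1.07, SE 0.249, edgeR adjusted p = 0.017), and lost its call without STING Loxp replicate 3 (0.0535) or STING LKO replicate 3 (0.0615). Of 5 tested genes of this group 1 was called lower and 2 higher, where 11.6% and 11.5% of all genes tested were called, while 0 of the 3 tested ceramidases other than *Asah1* were called.

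Of 12 tested genes of sphingosine 1-phosphate turnover, export and reception, 3 were called lower and 0 higher, where 11.6% and 11.5% of all genes tested were called, and only the call of *Spns2* held in all 14 alternatives. *Spns2*, an exporter of sphingosine 1-phosphate, had 63, 49 and 61 reads in STING Loxp against 30, 34 and 33 in STING LKO, with a log2 fold change of -1.01 (SE 0.183, edgeR adjusted p = 0.00577). *Plpp3*, a lipid phosphate phosphatase, was at 39.7, 82.2 and 45.1 CPM in STING Loxp and at 31.9, 30.1 and 30.7 CPM in STING LKO. STING Loxp replicate 2 stood highest, and the log2 fold change was -0.85 with all libraries (edgeR adjusted p = 0.0366) and -0.45 without it (adjusted p = 0.012). Leaving out any 1 STING LKO library lost the call of *Plpp3*, with an adjusted p of up to 0.105. *Sgpp1*, a sphingosine 1-phosphate phosphatase, went from 50.4 ± 4.37 to 40.6 ± 2.36 CPM (SD, n = 3, log2 fold change -0.31, edgeR adjusted p = 0.032), and lost its call without any library except STING Loxp replicate 3, with an adjusted p of up to 0.109. *Sphk1*, the other sphingosine kinase, was at 4.86, 5.17 and 10.6 CPM in STING Loxp and at 7.97, 12.2 and 11.3 CPM in STING LKO. STING Loxp replicate 3, the library in which *Degs1* stood apart, was within the STING LKO range, and the log2 fold change was 0.61 with it (edgeR adjusted p = 0.184) and 1.07 without it (adjusted p = 0.0173).

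In the lysosomal breakdown of glycosphingolipids, 2 of 11 tested genes were called lower and 0 higher, where 11.6% and 11.5% of all genes tested were called. Of the 11 log2 fold changes 10 were below 0, as were 7112 of the 14151 over all genes. *Gm2a*, the activator protein for ganglioside GM2 breakdown, went from 63.3 ± 1.12 to 49.1 ± 3.24 CPM (SD, n = 3, log2 fold change -0.37, edgeR adjusted p = 0.00821). *Gla*, the alpha-galactosidase, went from 20.3 ± 1.64 to 16.1 ± 0.438 CPM (log2 fold change -0.33, edgeR adjusted p = 0.0349), and lost its call without any library except STING Loxp replicate 3, with an adjusted p of up to 0.118. The median log2 fold change of the 11 was -0.09.

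**Figure D5:**
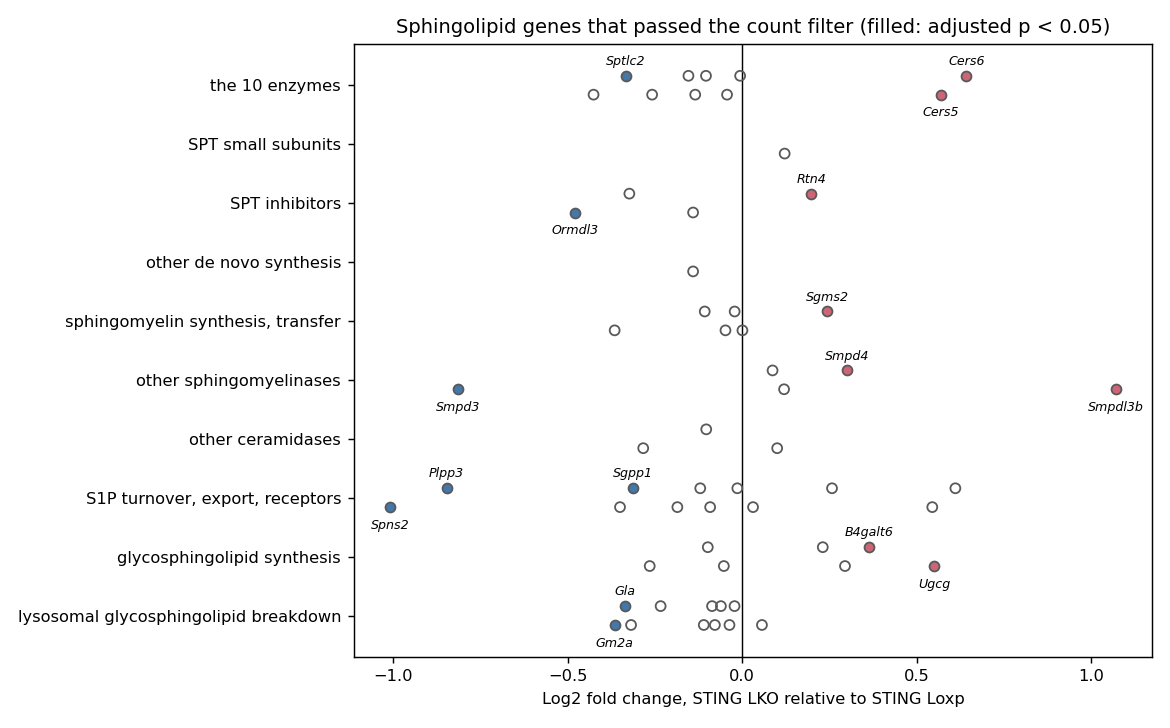
Log2 fold change of STING LKO over STING Loxp for the 10 enzymes (top row) and the 50 other tested sphingolipid genes by role; each circle is a gene, filled where the adjusted p was under 0.05 and open otherwise, and SPT is serine palmitoyltransferase and S1P sphingosine 1-phosphate. Called genes lie on both sides of 0, from *Spns2* at -1.01 to *Smpdl3b* at 1.07.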

How the data were processed

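The authors sequenced paired reads of 150 bases and mapped them with HISAT2, and the submitters' processing notes also list fastp, StringTie, edgeR and the build GRCm39, without roles or versions. The authors deposited 1 table of 57180 genes with a raw read count and an FPKM value per library, 6 columns of each. The annotation, counter and strand setting are not given in the sources used here. Groups came from the sample labels.

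The counts were fitted with edgeR 4.0.16 under R 4.3.3. The filter filterByExpr (minimum count 10) left 14151 genes, which were normalized by TMM and compared by the quasi-likelihood test, two-sided, and p-values were adjusted by Benjamini-Hochberg over all of these genes. Counted reads were 14726983 to 18536985 per library, and the biological coefficient of variation was 0.118. The chi-square per degree of freedom between replicates was 7.77 to 16.7, above counting noise. Scripts were tested on simulated data. Promoters were searched in RefSeq sequences on GRCm38.p6, and transcript lengths came from GENCODE annotation of the same assembly as lengths only. Figures used matplotlib 3.10.9 in Python 3.11.15.

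The 10 members, the 63 other sphingolipid genes and the marker lists were chosen with earlier results of these data known. Named were the 10 members, listed genes with an adjusted p under 0.05 (at most 15), genes of the same enzymes as the members, *Sting1*, and leading markers of each list, with the log2 fold change and adjusted p of the most abundant: *Cd68* (-0.87, 4.21e-04) and *Lyz2* (0.18, 0.353) of macrophages, *Cdh5* (0.01, 0.977) and *Lyve1* (-0.20, 0.331) of endothelium, *Ecm1* (-0.13, 0.289) and *Sparc* (-0.04, 0.845) of stellate cells, *Cldn4* (-1.03, 2.81e-04) and *Sox9* (-0.87, 4.08e-04) of cholangiocytes. Further macrophage and cholangiocyte markers were named beside their sums, since the most abundant ones do not stand for their lists.

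The 14 alternatives were DESeq2 1.42.0, upper-quartile factors, edgeR's exact test, 2 other filters (all genes with 1 count or more, and a minimum of 10 counts in each library), limma 3.58.1 on log2(FPKM + 1) and log2(FPKM + 0.1), the replicate number as a block, and each library left out in turn. The study's criteria for a called gene were a further rule. Levels per kilobase of a principal transcript were chosen once the data had been seen.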

Additional observations from a re-analysis of the deposited data

How the results depend on the processing

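Over the 14 alternatives *Cers5* and *Cers6* stayed called higher and *Sptlc2* called lower, and the number of members called moved only without STING LKO replicate 1, to 2 lower (range 1 to 2 with 1 library left out), and by the study's criteria, to 0 lower and 0 higher. The members' median log2 fold change was -0.036 on log2(FPKM + 1) and -0.047 on log2(FPKM + 0.1), where the medians over all genes tested were 0.0215 and 0.0334. With 1 library left out the members' median was -0.12 to -0.032, the last without STING Loxp replicate 3. Signs turned for *Sptlc1* (0.032 and 0.034 on the FPKM scales, -0.076 to 0.033 with 1 library left out), *Cers4* (-0.67 to 0.33), *Degs1* (-0.65 to 0.10) and *Sphk2* (-0.14 to 0.043). The other listed sphingolipid genes called lower numbered 4 with every gene of at least 1 count and 4 on either FPKM scale, and with 1 library left out 4 to 7 were lower and 1 to 4 higher. Over all genes, 1052 to 1515 were lower and 922 to 1510 higher with 1 library left out, which leaves fewer samples. A call lost there can come with a smaller difference or without one. *Rtn4*, at 0.20 with all libraries, lost its call at 0.17 without STING LKO replicate 1 and at 0.23 without STING LKO replicate 2. The causes of these changes were not tested. *Cers4* had no value at 10 counts in every library, and DESeq2 gave no adjusted p for 8 genes.

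The replicate numbers are shared by the groups. Correlations between the groups, of deviations from the group means, were 0.12, 0.0834 and 0.0134 for same-numbered libraries. For libraries of different numbers they were -0.131 to 0.0459. Whether a number marks a shared day or batch is not given in the sources used here. With so few libraries these values cannot decide it. With the number as a replicate block, 1 member was lower and 2 higher, 6 other listed genes were lower and 5 higher, and 1605 genes were lower and 1630 higher in all. *B4galt6* (adjusted p = 0.0624) and *Gla* (0.0591) lost their calls in that block fit, by edgeR.

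With 3 libraries per group, low genes such as *Cers4* are limited by depth, and RNA levels say nothing of enzyme activity or lipid amounts, which were not measured in these files.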

Other observations

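A search for genes at which 1 library stood apart, made after *Degs1* had been seen, took the 9209 genes with a mean of at least 10 CPM and asked where 1 library was at least 2 times above each of the other 5. STING Loxp replicate 3 stood above the rest for 4 genes, *Degs1*, *Dpm1*, *Hmga1* and *Ube2v1*. STING Loxp replicate 2 did so for 22 genes, among them *Ccl2*, *Cxcl1*, *Icam1*, *Nfkbia* and *Vcam1*, and the other 4 libraries for 1 to 6 genes each. In the other direction 5 to 11 genes per library were at least 2 times below the rest. Of the sphingolipid enzymes followed here that reached this level, *Degs1* was the only one to stand apart in either direction.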
